A study of Rattus norvegicus with 6 samples.

Results

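Hippocampal gene expression 35 days after both common carotid arteries had been closed was set against that of control rats, with 1 array of pooled RNA on each side. Both arrays belonged to a series of 6 and lay on the same slide. The day 35 pool came from male Wistar rats (spelled Wister in the labels) whose 2 common carotid arteries had been tied with silk sutures under 5% isoflurane, a surgery abbreviated BCCAo and used to lower blood flow to the forebrain. The control pool came from male rats of the same strain, and the labels attach the surgical protocol to its record too, so whether control rats had a sham operation is not known here. Labelled ages were 12 weeks for the control and 14 weeks for day 35, although 35 days separate them. The number of rats in a pool is not given either. Of 17477 genes named on the array, 13936 could be compared because the signal of their probe stood well above background in 1 pool or both. Another 55 were left out because their probe was saturated, or too bright to be read, on both arrays. With 1 array a side there is no replicate check, no p-value or standard error is given, and every difference describes these 2 pools only.

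Blood reaches the rat forebrain through the carotid and the vertebral arteries, which are joined at the base of the brain. When the carotids are closed the vertebral supply keeps the tissue alive at a flow that is first reduced and partly recovers over weeks, and the CA1 field and the white matter are known as the parts most at risk. Type I interferons, the heat shock response, the unfolded protein response of the endoplasmic reticulum and the cells of the vessel wall are all known to react to a shortage of blood.

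Levels are log2 intensities minus the 75th percentile of the same array, so that 0 is the brightness below which 75% of the spots lay. A difference is the day 35 level minus the control level in log2 units, where 1 is a doubling. Where a probe was well above background on 1 array only, the lowest signal well above background on the other array (or the probe's own signal, where that was higher) was used for it, and such a difference is a bound. The difference of a probe saturated on 1 of the 2 arrays is counted as a bound too. A gene with several probes is given by the one with the highest mean level over the 6 arrays, which need not be the brighter one on these 2. In these terms the 2 arrays were close. Among the 13321 genes measured on both arrays the median difference was -0.04, the SD was 0.26, and 95% of the genes lay between -0.61 and 0.40. Over the 12325 genes bright on all 6 arrays, the SD of the day 35 minus control differences was 0.239, against 0.317 to 0.435 between day 35 and the other 4 arrays. Each comparison has 1 array a side, so their order was not tested. The day 21 array shared the slide of these 2, while those of days 45, 55 and 70 lay on another slide. Slide and day therefore cannot be told apart for those days, which also holds for every rank among the 6 arrays given below.

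At least 2-fold differences were few. At day 35, 63 genes were at least 2-fold higher (0.452% of those compared) and 157 at least 2-fold lower (1.13%). Of these, 23 and 84 were measured on both arrays (0.173% and 0.631% of the genes measured on both), and the rest are bounds. The split between higher and lower turned on the scaling, since quantile normalization of the 6 arrays gave 115 higher and 134 lower and a loess fit over mean level gave 94 and 122. Of 3 equal groups of genes by mean level, the dimmest held 46 of the 63 and 118 of the 157, and the brightest 1 and 2. The spread narrowed with level too, with an SD of 0.40 in the dimmest, 0.28 in the middle and 0.17 in the brightest group. Of the 157 lower genes the control array was the highest of the 6 in 129 (23% of all compared genes), and day 35 was the lowest of the 6 in 31 (12.4% of all). Of the 63 higher genes day 35 was the highest of the 6 in 52 (14.6% of all). These genes were picked for their values on the same 2 arrays, so high counts are in part built in.

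**Figure D1:**
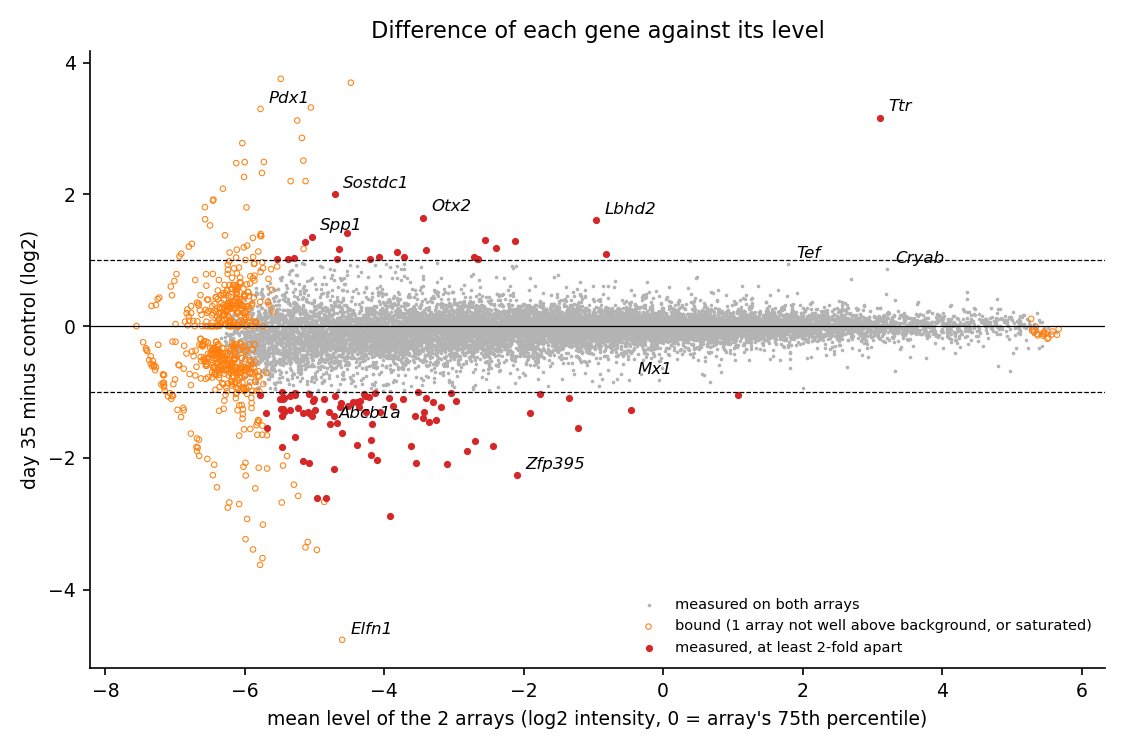
Each point is 1 of the 13936 compared genes, with the mean level of the control and day 35 arrays on the x axis (log2 intensity, 0 at the 75th percentile of the array) and the day 35 minus control difference on the y axis (log2). Red points are the 23 higher and 84 lower genes measured on both arrays, open orange circles are bounds, and dashed lines mark 2-fold; the spread widens toward dim genes, and Ttr is the sole higher gene of the brightest group.

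Genes that answer to interferon had the lowest median of all gene lists at day 35. Interferons are cytokines released on infection or tissue stress; they act through receptors on the cell surface on a set of antiviral genes. Of 18 compared members 16 were below the control (58.2% of all compared genes were) and 2 above it, with a median of -0.32 against -0.04 for all genes. None was 2-fold apart. In 13 of the 18 the day 35 array was the lowest of the 6 (12.4% of all genes). Among the 13 effectors 12 were below the control and the median was -0.55, whereas the 5 regulators had a median of -0.18.

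Mx1 encodes a GTPase that blocks virus replication, and its probe lies at chr11:37438580-37438639 of rn4, the build of the files, for which no exon annotation was used here. Its level was -0.08 in the control and -0.90 at day 35, a difference of -0.82, while the other arrays gave 1.04 at day 21, -0.29 at day 45, -0.20 at day 55 and -0.40 at day 70. Day 35 was thus the lowest of the 6, and day 21 the highest. Isg15, a ubiquitin-like modifier, stood at -1.38 in the control and -2.07 at day 35, a difference of -0.69, with 0.33, -1.45, -1.71 and -1.70 on the arrays of days 21, 45, 55 and 70. Usp18, the protease that removes ISG15 from its targets, stood at -3.71 in the control and -4.60 at day 35 and differed by -0.90, and its other probe by -0.52. Again no other array was as low for either gene.

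Rsad2 (viperin), an enzyme that makes a chain-terminating nucleotide, differed by -0.57, the RNA-binding protein gene Ifit2 by -0.55 and Oas1a, a sensor of double-stranded RNA, by -0.73. Oas1a is the exception among the larger differences, since its level of -4.53 at day 35 lay above the -4.73 of day 55. Irf7, the transcription factor that amplifies interferon production, differed by -0.50. Ifih1, the RNA sensor MDA5, was not well above background at day 35 and is at least 1.58-fold lower. Other members differed less, such as Stat2 by -0.19, Mx2 by -0.22 and Ifi27 by -0.26. Irf1 stood at 0.11 and Ifitm3 at 0.00.

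Rtp4, a receptor chaperone induced by interferon that was not in the list, is read from 10 spots. Its level was -2.20 in the control (SD between spots 0.086) and -2.80 at day 35 (SD 0.058), a difference of -0.60. The chemokine gene Ccl6 differed by -1.16, with -0.65 at its other probe. Complement genes had 9 of 16 members above the control and a median of 0.09 (-0.11 with the median of the other 5 arrays as the baseline), with the central component gene C3 lowest at -0.55. Among genes that load class I antigen 6 of 7 were below the control (58.2% of all compared genes were), with a median of -0.14 and Psmb9 at -0.31. Of 6 class II genes 5 were above the control (41.6% of all compared genes were), but RT1-Bb stood at 0.15 at its chosen probe and -0.18 at another. RT1-Da, at 1.02, was the sole member 2-fold apart; it stood at -0.33 with the other 5 arrays as the baseline, and since genes of the RT1 family are alike its probe is uncertain. Markers of microglia had a median of 0.03 (11 of 20 above the control, from -0.44 to 0.47; -0.18 with the median of the other 5 arrays as the baseline) and those of endothelium one of -0.14, and their part in the interferon values was not tested. In pooled tissue RNA, fewer cells of a type and less RNA per cell cannot be told apart. The interferon median stayed between -0.33 and -0.21 under all 13 other ways of processing.

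The promoters of these genes are shown because the members stood low together. The 250 bases before the gene start (RefSeq, build GRCr8) were searched on both strands for the interferon-stimulated response element, taken as GAAA, any 2 bases and GAAA. It occurred in 9 of the 14 listed genes that had a promoter in the table (64.3%) and in 1140 of all 33469 promoters (3.41%); the list was chosen for its known regulation, so the share describes the list. The 150 bases before the start are printed for Irf7 at chr1:205800024-205800173 (minus strand), Oas1a at chr12:41330316-41330465 (plus strand) and Rsad2 at chr6:48788121-48788270 (minus strand), with the match in capitals; Oas1a holds 2 matches that overlap.
Irf7: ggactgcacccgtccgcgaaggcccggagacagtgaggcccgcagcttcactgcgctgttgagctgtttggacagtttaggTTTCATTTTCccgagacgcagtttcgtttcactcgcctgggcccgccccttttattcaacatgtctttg
Oas1a: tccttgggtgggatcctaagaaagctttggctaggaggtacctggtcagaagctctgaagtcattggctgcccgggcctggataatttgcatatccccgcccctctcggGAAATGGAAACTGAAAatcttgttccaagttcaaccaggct
Rsad2: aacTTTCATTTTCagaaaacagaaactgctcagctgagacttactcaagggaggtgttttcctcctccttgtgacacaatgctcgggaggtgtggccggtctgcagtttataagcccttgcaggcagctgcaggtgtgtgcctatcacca

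Chaperones stood on the other side. The unfolded protein response raises folding helpers of the endoplasmic reticulum when secreted proteins misfold, and the heat shock response does the same for the cytosol. Of 34 genes of endoplasmic reticulum stress 24 were above the control (41.6% of all compared genes were) and 10 below, with a median of 0.13; of 18 cytosolic heat shock genes 16 were above and 2 below, with a median of 0.23. No member of either list was 2-fold apart.

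Within the endoplasmic reticulum list 10 of 12 chaperones were above the control, with a median of 0.21, as were 5 of 6 disulfide enzymes (median 0.14) and 5 of 7 degradation genes (0.10). In 8 of the chaperones the control was the lowest of the 6 arrays (8.75% of all genes). Hspa5 encodes BiP, the main chaperone of the compartment, and is read by a probe at chr3:13787739-13787798 (rn4). Its level was 2.95 in the control and 3.43 at day 35, a difference of 0.48, with 3.55, 3.30, 3.37 and 3.17 at days 21, 45, 55 and 70, so that all 5 arrays after occlusion were above the control. Sdf2l1, a partner of BiP, stood at -0.57 in the control and 0.10 at day 35, a difference of 0.67 (0.49 at its other probe), and the other days lay between -0.20 and 0.77. Creld2 (0.54), the secreted factor gene Manf (0.52) and the disulfide isomerase gene Pdia3 (0.42) each had their highest level of the 6 arrays at day 35. Dnajb11, read from 10 spots, differed by 0.26, with SDs between spots of 0.125 and 0.054.

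Sensors and transcription factors of the same response did not follow the chaperones. Of 9, 4 were above the control and 5 below, with a median of -0.05. The spliced factor gene Xbp1 stood at 0.33, Ddit3 (CHOP) at 0.14 and Atf4 at 0.07. Below the control were Atf6 at -0.47 (-0.13 at its other probe), the phosphatase regulator gene Ppp1r15a at -0.41 and the dim gene Trib3 at -0.73. Atf3 differed by -0.87, with levels of -3.53 in the control and -4.41 at day 35, and was not in the dimmest group.

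Among cytosolic members, Cryab encodes the small heat shock protein alpha-B crystallin, with its probe at chr8:54111396-54111455 (rn4). Its level was 2.77 in the control and 3.64 at day 35, a difference of 0.87, and all other arrays lay between 3.46 and 3.90. The control is the array that stands apart for this gene. Bag3, a co-chaperone that feeds damaged protein to autophagy, is read from 10 spots and stood at -0.29 in the control and 0.17 at day 35, a difference of 0.46 (SDs between spots 0.108 and 0.048). The list of co-chaperones of HSP90 and HSP70 and their factor was above the control in 7 of 8 cases, namely Chordc1 at 0.47, Fkbp4 at 0.39, Dnaja1 at 0.38, Ahsa1 at 0.33, Dnajb1 at 0.27 and Stip1 at 0.15 beside Bag3. Their transcription factor gene Hsf1 stood at -0.14. The inducible HSP70 gene Hspa1b differed by 0.32, and the probe chosen for Hspa8 was saturated on both arrays, although its other 3 probes gave 0.40, 0.23 and 0.40. The mitochondrial chaperone genes Hspd1 and Hspe1 stood at -0.09 and 0.05. With the median of the other 5 arrays as the baseline instead of the control, the heat shock median was 0.05, the endoplasmic reticulum median 0.07, Hspa5 0.13 and Cryab -0.01.

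The endoplasmic reticulum stress element, taken as CCAAT, any 9 bases and CCACG on either strand, occurred in 9 of 27 listed promoters (33.3%) and in 22 of all 33469 (0.0657%). The heat shock element, taken as GAA, any 2 bases, TTC, any 2 bases and GAA, occurred in 4 of 16 (25.0%) and in 222 (0.663%). Those 4 were the promoters of Hspa8, Hsph1, Hspd1 and Hspe1. Both lists were chosen for their known regulation, so the shares describe the lists and not the day 35 differences. The 150 bases before the start are shown for Hspa5 at chr3:38452866-38453015 (plus strand), Creld2 at chr7:121789234-121789383 (plus strand) and Hsph1 at chr12:10427218-10427367 (plus strand), whose day 35 differences were 0.48, 0.54 and 0.11. Capitals mark the endoplasmic reticulum stress element in the first pair and the heat shock element in Hsph1.
Hspa5: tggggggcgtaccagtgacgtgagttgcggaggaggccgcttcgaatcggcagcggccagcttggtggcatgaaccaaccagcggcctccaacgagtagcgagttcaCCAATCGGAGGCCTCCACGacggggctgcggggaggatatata
Creld2: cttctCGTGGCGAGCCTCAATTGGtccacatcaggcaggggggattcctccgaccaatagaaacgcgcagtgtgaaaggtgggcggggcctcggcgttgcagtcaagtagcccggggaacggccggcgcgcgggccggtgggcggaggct
Hsph1: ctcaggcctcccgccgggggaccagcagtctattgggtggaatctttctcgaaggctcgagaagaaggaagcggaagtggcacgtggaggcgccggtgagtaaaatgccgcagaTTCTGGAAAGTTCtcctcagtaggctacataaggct

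**Figure D2:**
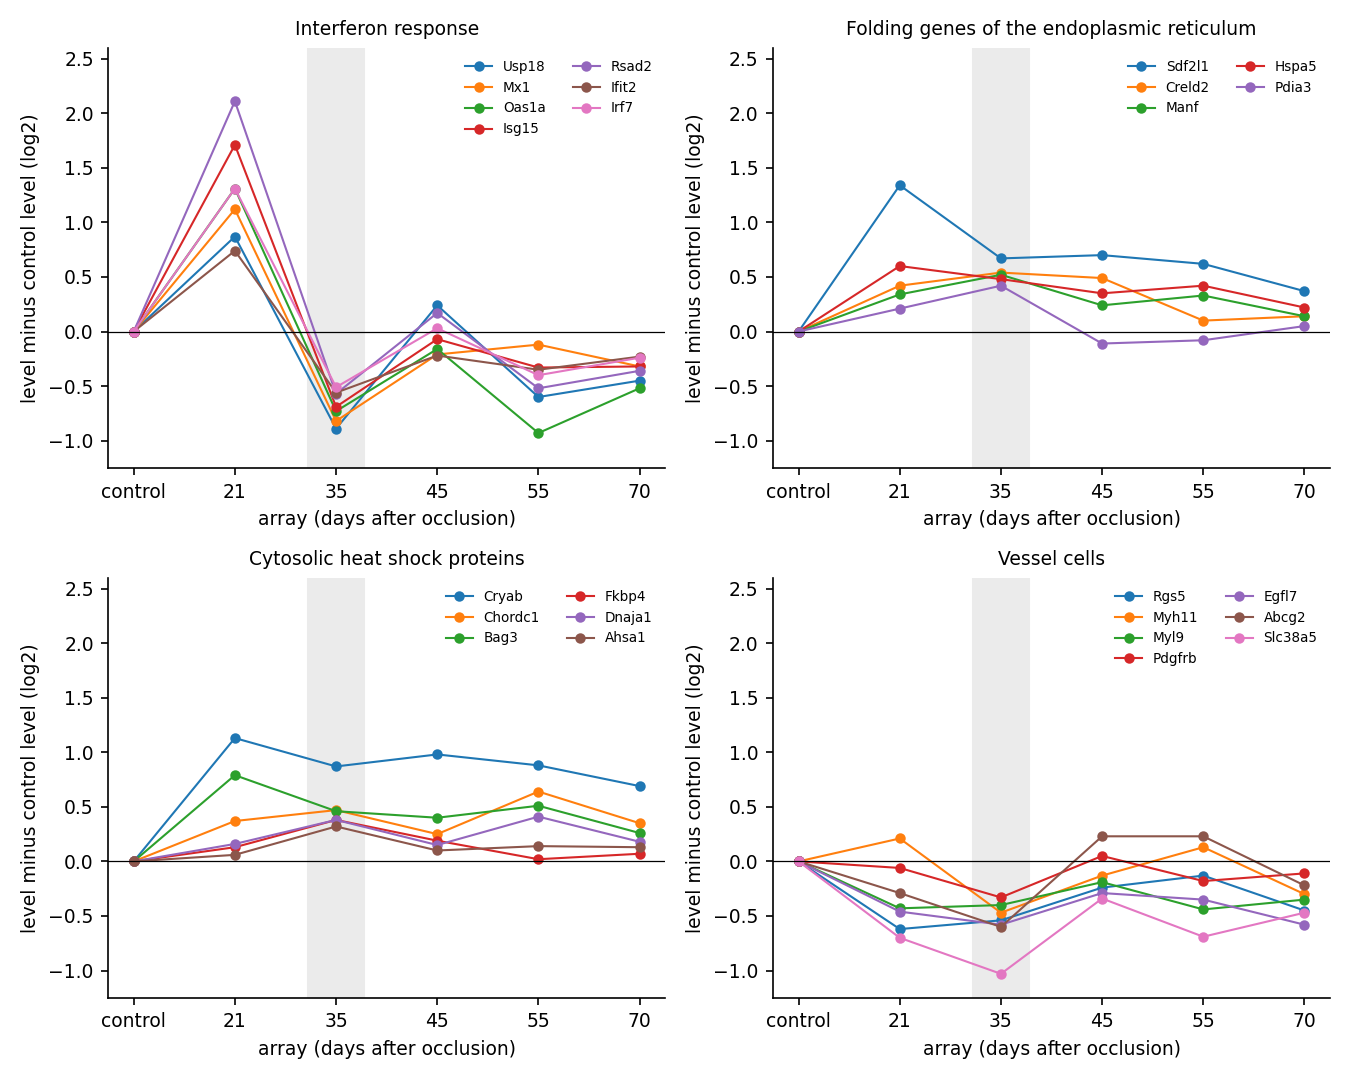
Lines join the levels of single genes on the 6 arrays (control, then days after occlusion on the x axis), drawn as log2 level minus the same gene's control level, which all points of a line share; each point is 1 array of other animals. At day 35, shaded, the 7 interferon genes lie between -0.90 and -0.50, the 5 folding genes of the endoplasmic reticulum (4 chaperones and Pdia3) between 0.42 and 0.67, the 6 cytosolic genes between 0.33 and 0.87, and the 7 genes of vessel cells between -1.03 and -0.32.

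Genes of the vessel wall were mostly below the control, by small amounts. Pericytes wrap the capillaries and regulate their width, and smooth muscle does so in arterioles. Of 16 compared members 14 were below the control (58.2% of all compared genes were) and 2 above, with a median of -0.26. In 6 of them day 35 was the lowest of the 6 arrays (12.4% of all genes). Rgs5, a brake on G-protein signals and a pericyte marker, stood at -1.53 in the control and -2.07 at day 35, a difference of -0.54, with -2.15, -1.77, -1.66 and -1.98 at days 21, 45, 55 and 70. Day 21 was lower still. Myh11, the smooth muscle myosin, differed by -0.47 (-0.16 at its other probe), the myosin light chain gene Myl9 by -0.41, the matrix protein gene Vtn by -0.34, Notch3 by -0.33 and the PDGF receptor gene Pdgfrb by -0.32. Cspg4 (NG2), read from 10 spots, differed by -0.21, with SDs between spots of 0.083 and 0.044. The potassium channel gene Kcnj8 (0.02) and Acta2 (-0.04) were near the control. The list's median was -0.10 with the other 5 arrays as the baseline.

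Of 30 endothelial genes 27 were below the control (58.2% of all compared genes were), with a median of -0.14 and none 2-fold apart. All 8 surface proteins and enzymes and all 6 transcription factors were below it. Egfl7, a matrix factor secreted by endothelium, stood at -0.28 in the control and -0.86 at day 35, a difference of -0.58, and days 21 to 70 lay between -0.86 and -0.57. Erg, a transcription factor of endothelial identity, differed by -0.41 and by -0.47 at its other probe. Pecam1 (CD31) and Mcam each differed by -0.29 and were lowest of the 6 arrays at day 35. Flt4 differed by -0.44 at 1 probe and -0.01 at the other, and Vwf by -0.23, 0.06 and -0.13 at its 3 probes. Vegfa (-0.03), Kdr (-0.09) and the 10-spot genes Apln (0.02) and Nrp1 (-0.01) stood near the control. The endothelial median was -0.07 with the other 5 arrays as the baseline or under quantile normalization.

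Transporters of the blood-brain barrier differed more than its junctions. The barrier is made by endothelial cells joined by tight junctions, with pumps that return foreign molecules to the blood. All 4 transporters listed under efflux were below the control (58.2% of all compared genes were). Abcg2 stood at -1.85 in the control and -2.45 at day 35, a difference of -0.59, the lowest of the 6 arrays, which otherwise ranged from -2.14 to -1.62. Abcb1a (P-glycoprotein; probe at chr4:21795859-21795918, rn4) stood at -4.03 in the control and -5.52 at day 35, a difference of -1.49, but the other arrays lay between -5.62 and -4.98, so the control is the array that stands apart, and with the other 5 as the baseline it differed by -0.23. Abcc4 differed by -1.09 at its chosen probe and by -0.05 and -0.04 at 2 others. Slco1a4, which moves organic anions, differed by -0.34 and was the lowest of the 6.

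Of 9 uptake carriers 7 were below the control (58.2% of all compared genes were). Slc38a5, a glutamine carrier, stood at -1.26 in the control and -2.29 at day 35, a difference of -1.03, and was the lowest of the 6 arrays, the others lying between -1.96 and -1.60 after occlusion; with these and the control as the baseline it differed by -0.55. The transferrin receptor gene Tfrc differed by -0.40 and -0.56 at its 2 probes, and the glucose carrier gene Slc2a1, read from 9 spots, by 0.03. Tight junction genes had a median of 0.00 with 5 of 10 on each side, among them Cldn5 at -0.19, Ocln at 0.10 and the 10-spot gene Tjp1 at -0.01. Of the nitric oxide and endothelin genes 10 of 13 were below the control (58.2% of all compared genes were), with a median of -0.15. The endothelial synthase gene Nos3 (10 spots) stood at -0.18 and the endothelin receptor gene Ednra at -0.34. Of 7 red blood cell genes 6 were below the control (median -0.09), and with the other 5 arrays as the baseline this median was 0.11 and that of the nitric oxide and endothelin genes 0.00. The part of red blood cells in the vessel values was not tested.

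**Figure D3:**
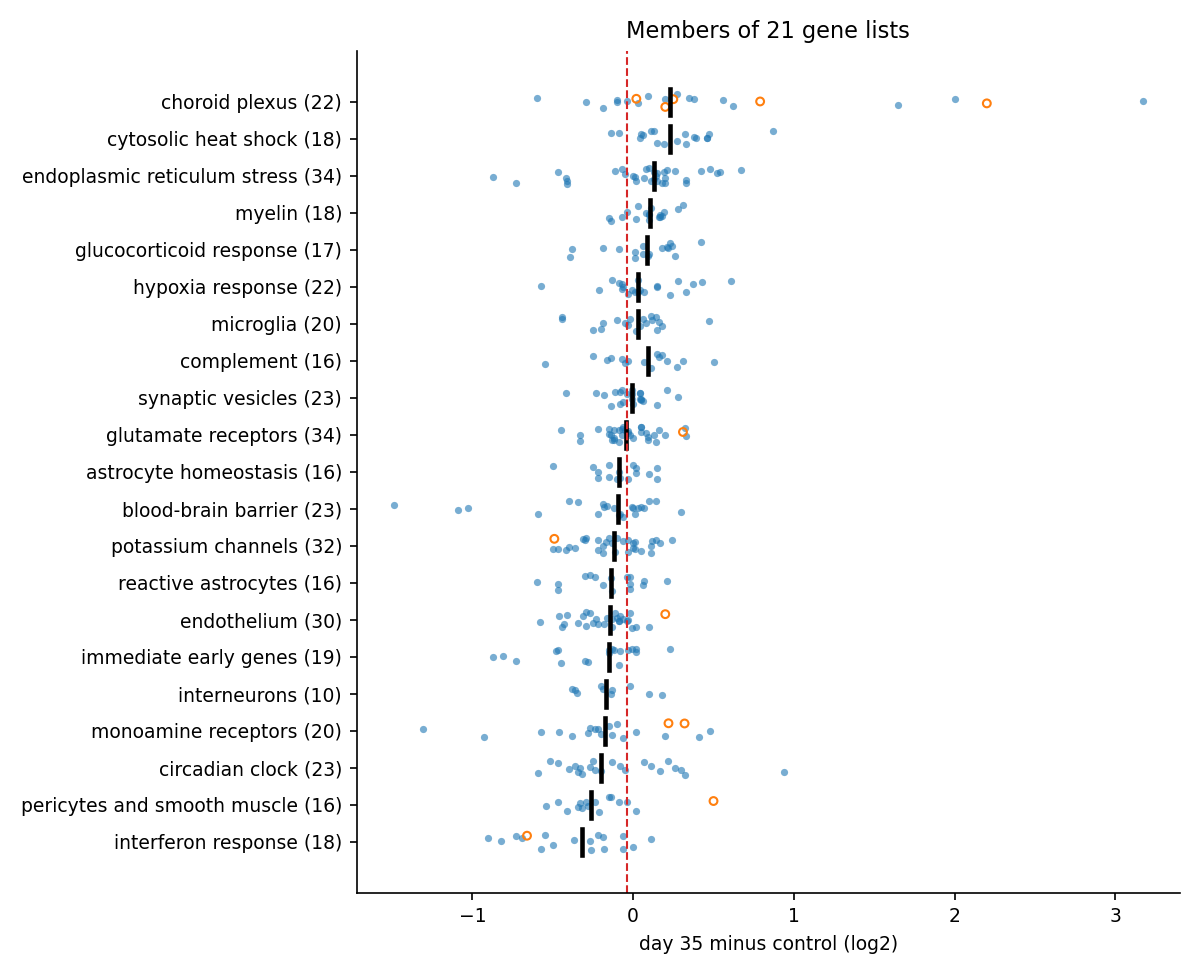
Each row is a gene list with the number of its compared genes in brackets, each point a member (open orange where the value is a bound), and the black bar the list's median, on an x axis of day 35 minus control differences (log2); the dashed red line is the median of all compared genes, -0.04. Medians run from 0.23 for choroid plexus and cytosolic heat shock genes down to -0.32 for the interferon response, and members of most lists fall on both sides of the line.

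Clock genes were split. In the circadian clock the factors BMAL1 and CLOCK drive the genes of their own repressors and of output factors such as DBP and TEF. Of 23 compared genes 15 were below the control (58.2% of all compared genes were) and 8 above, with a median of -0.20. Dbp stood at 3.78 in the control and 3.30 at day 35, a difference of -0.47 (-0.57 and -0.55 at its other probes), and the later and earlier days lay between 3.17 and 3.52. Nr1d1, the repressor REV-ERB alpha, stood at -1.99 in the control and -2.51 at day 35, a difference of -0.52, with a range of -2.87 to -2.15 on the other arrays after occlusion. For both genes the control was the highest of the 6.

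Tef stood on the other side. It is read from 10 spots of a probe at chr7:120179652-120179711 (rn4), with a level of 1.33 in the control (SD between spots 0.050) and 2.26 at day 35 (SD 0.047), a difference of 0.94 and the highest of the 6 arrays. The other days gave 0.34, 1.83, 0.82 and 0.50, so the gene varied widely between pools. The activator gene Bmal1 stood at 0.17 and 0.42 at its 2 probes and its partners Clock and Npas2 at -0.27 and -0.33, with -0.69 and -0.66 at their other probes. Csnk1e, a kinase that marks PER proteins for decay, differed by -0.59, with -0.65 and -0.24 at its other probes. Bhlhe41 differed by -0.40, Ciart by -0.36 and the 10-spot gene Per2 by -0.25. Per3 stood at 0.30 at its chosen probe but at -0.57 and -0.84 at others. The E-box CACGTG occurred on either strand in 4 of 19 listed promoters (21.1%), those of Bhlhe40, Bhlhe41, Ciart and Tef, and in 1872 of all (5.59%). The D-box, taken as TTATG, any base and AA, occurred in 1 of 19 (5.26%) and in 1099 of all (3.28%). The list was chosen for its known part in the clock, so these shares describe the list. The median of the list was -0.01 with the other 5 arrays as the baseline.

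Choroid plexus markers were above the control in 16 of 22 cases (41.6% of all genes were), with a median of 0.23, and 4 were at least 2-fold higher (0.452% of all). Of the 22 values 5 are bounds, against 615 of 13936 for all genes. A bound can count only toward the array where the gene was well above background. The 17 measured markers had a median of 0.20. The plexus is the epithelium of the ventricles that makes cerebrospinal fluid and lies against the hippocampus. Ttr, its thyroid hormone carrier, had levels of 1.53 in the control and 4.69 at day 35, an 8.97-fold difference, and of 5.66, 1.499, 1.48 and 5.44 at days 21, 45, 55 and 70. The arrays of days 21, 35 and 70 were thus high and the control and days 45 and 55 low, with none between. Sostdc1, a secreted BMP and WNT antagonist read from 10 spots, stood at -5.71 in the control and -3.71 at day 35, where the SDs between spots were 0.534 and 0.084, and stood at -2.32, -7.03, -6.57 and -2.63 on the other days. Otx2, a transcription factor of the plexus, differed by 1.65 and the channel gene Kcnj13 was at least 4.60-fold higher. Folr1 differed by 0.62 and the 10-spot gene Ecrg4 by 0.56. Under normexp background correction, which lifts dim signals, Sostdc1 and Kcnj13 both stood at 0.81, while Ttr stood at 3.22.

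Other plexus genes did not follow. The water channel gene Aqp1 (-0.04), Kcne2 (-0.10) and the bicarbonate carrier gene Slc4a5 (-0.60) were at or below the control, Prlr, Cldn2 and Tmem72 were not well above background on either array, and Kl and Clic6 stood at 0.02 as a bound and at 0.20. Genes of the meninges had a median of 0.01, with 8 of 15 above the control. Thalamic markers had a median of 0.16, and Zic1 and Zic4, neighbouring genes for zinc finger factors also found in meninges and cerebellum, differed by 1.12 and 1.15, the highest of the 6 arrays in both (0.67 and 0.75 under normexp). The thalamic genes Calb2 (0.68) and Prkcd (0.40, 10 spots) were above the control and Ntng1 (-0.40) and Plcb4 (-0.46) below, while Gbx2 and Shox2 were not well above background. Striatal markers had a median of 0.12 and hypothalamic ones -0.14. How far tissue next to the hippocampus bears on any other value was not tested.

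**Figure D4:**
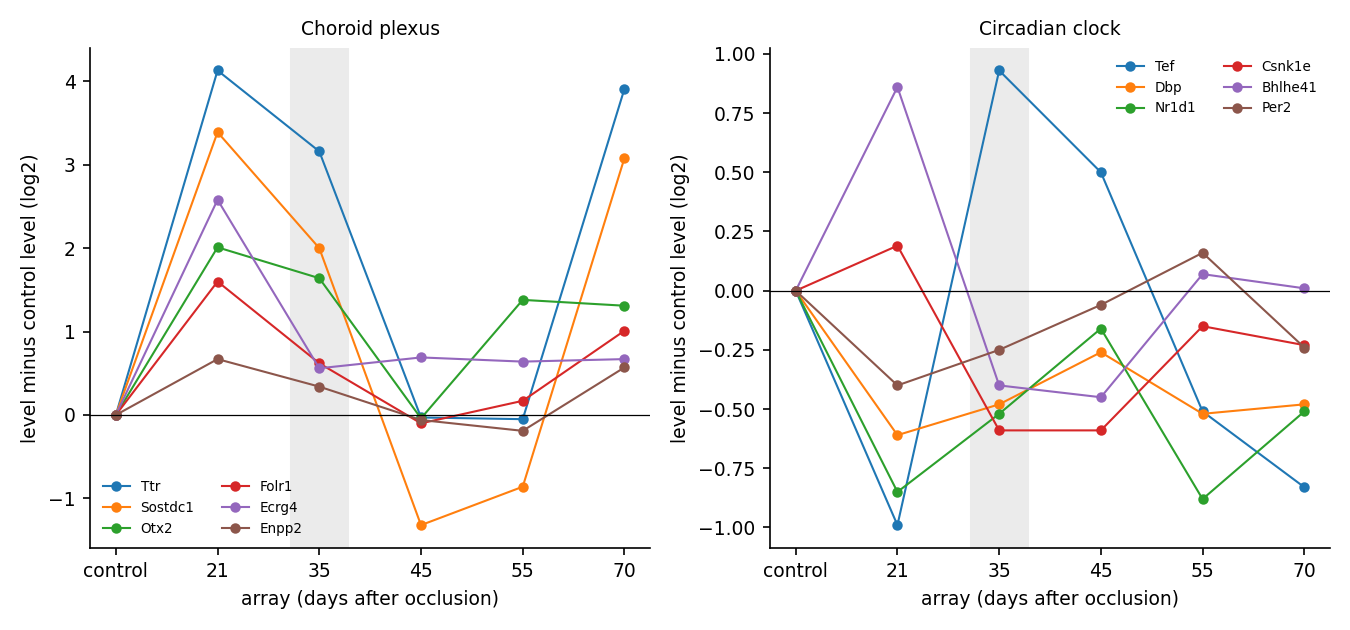
Levels of 6 choroid plexus genes (left) and 6 clock genes (right) on the 6 arrays, as log2 level minus the gene's control level; lines join single arrays of other animals, all points of a line share the control, and the y axes differ. At day 35, shaded, Ttr lies at 3.17 on the left and Tef at 0.94 on the right, with the other 5 clock genes between -0.59 and -0.25.

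Immediate early genes, which neurons and vessels switch on within minutes of a stimulus, were below the control in 16 of 19 cases (58.2% of all compared genes were). Their median was -0.15. The synaptic gene Arc (9 spots) differed by 0.02, Egr1 (10 spots) by -0.09, Homer1 (10 spots) by -0.12, Nr4a1 (10 spots) by -0.28 and Egr4 by 0.02. The lower members included Btg2, an inhibitor of proliferation, at -0.73 and lowest of the 6 arrays, the phosphatase gene Dusp1 at -0.81, Ier2 (9 spots) at -0.48 and Fos at -0.47. With the other 5 arrays as the baseline Dusp1 stood at 0.18, Ier2 at 0.12 and the list at -0.03.

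Glial groups stood close to the control. Reactive astrocyte genes were below it in 13 of 16 cases (58.2% of all compared genes were), with a median of -0.14. The protease inhibitor genes Serpina3n (-0.60) and Timp1 (-0.47) led them, with Gfap at -0.14 and Vim at 0.21. The median was -0.02 with the other 5 arrays as the baseline. Microglial purine receptor genes P2ry13 and P2ry12 stood at -0.44 and -0.25 and the fractalkine receptor gene Cx3cr1 at -0.44, while Tmem119 stood at 0.47. Spp1 (osteopontin), a product of activated phagocytes, is read from 10 spots and stood at -5.72 in the control and -4.36 at day 35, a 2.56-fold difference, with SDs between spots of 0.173 and 0.114; it stood at 0.43 at day 21, and its difference was 0.48 under normexp. Other genes of activated phagocytes had Lgals3 at 0.09, Gpnmb at 0.26, Cd68 at -0.27 and Ch25h at -0.64. Myelin genes were above the control in 14 of 18 cases (41.6% of all compared genes were), with Myrf at 0.31 and Mobp at 0.28. The myelin median was 0.10, and 0.02 with the other 5 arrays as the baseline.

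Neuronal lists had medians between -0.17 and 0.08. Among markers of CA1, CA2 and CA3 pyramidal cells levels in the control ran from -5.48 for Spink8 to 3.83 for Fibcd1, with Fibcd1 at 3.83 in the control and 4.02 at day 35 and Cpne4 at 2.87 and 2.54 (a difference of 0.22 at its other probe), so both pools held transcripts of hippocampal neurons. The median difference of the list was 0.01. The CA1 markers Wfs1 and Fibcd1 stood at 0.32 and 0.19 (-0.08 at the other probe of Fibcd1). Spink8 was not well above background at day 35 and stood at -0.92 as a bound. Dentate granule cell markers had a median of 0.08, from -0.85 for Lct to 0.69 for Prox1. Potassium channel genes were below the control in 22 of 32 cases (58.2% of all genes were), with a median of -0.12. Kcna4 stood at -0.50 and Kcnq5 at -0.47, and in 15 of the 32 genes the control was the highest of the 6 arrays (23.0% of all genes). With the other 5 arrays as the baseline the potassium channel median was 0.07 and that of interneuron markers -0.03.

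Monoamine receptor genes were below the control in 14 of 20 cases (58.2% of all genes were). Their median of -0.17 turned to 0.14 with the other 5 arrays as the baseline. The dopamine receptor gene Drd5 differed by -0.93 and the adrenergic receptor gene Adrb1 by -0.57, and for both the control was the highest of the 6. Interneuron markers were below the control in 8 of 10 cases (median -0.17), with Htr3a at -0.38, Cnr1 at -0.36 (0.02 at its other probe), Pvalb at -0.02 and Npy at 0.10. Among neuropeptide precursor genes Pdyn (0.60) and Chga (0.45) stood above and Tac1 and Cartpt (both -0.46) below. Genes of synaptic vesicles had a median of -0.01 and those of glutamate receptors -0.04, equal to the median of all genes.

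Genes of the hypoxia response had a median of 0.03, with 13 of 22 above the control (41.6% of all compared genes were). The collagen hydroxylase gene P4ha1 (0.61), Ndrg1 (0.43) and the vasodilator gene Adm (0.37) were the highest of the targets, whereas Vegfa, Slc2a1, Ldha (0.04) and Bnip3 (0.07) stood near the control. Of the 15 targets 7 were below the control. The lowest was Epo at -0.57, well above background on only 2 of the 6 arrays. Glucocorticoid targets were above the control in 11 of 14 cases (41.6% of all compared genes were), with a median of 0.14. Among them were Klf9 (0.26), Fkbp5 (0.24) and Tsc22d3 (0.18), while Mt1 stood at -0.39. Respiratory chain genes (median 0.03 over 43), ribosomal protein genes (0.00 over 70) and proteasome genes (0.02 over 31) lay at the middle of all genes.

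Outside the dimmest group of genes, after Ttr, Sostdc1 and Otx2, the highest were Lbhd2 (1.61), Zbed5 (1.41), Spp1 (1.36), the casein gene Csn1s1 (1.31) and Haus1 (1.29). Haus1, a subunit of the augmin complex of the mitotic spindle, is read from 10 spots and stood at -2.76 in the control and -1.48 at day 35, with SDs between spots of 0.084 and 0.022, but its other probe stood at -0.43 and the mean of both at 0.43. The lowest were Zfp395 (-2.26, with 0.00 at its other probe), the regulatory T cell factor gene Foxp3 (-2.10), Cel (-2.04), the neurotrophic factor gene Cdnf (-1.89), and Fbp1 and Niban1 (both -1.81); the other probe of Niban1 was not well above background on either array. Foxp3 had levels of -2.05 in the control and -4.15 at day 35, with -2.48, -2.37, -3.77 and -2.41 on the other days, so day 55 was low as well.

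Differences of at least 1.5-fold were seen in 0.76% (higher) and 1.75% (lower) of the genes measured on both arrays outside the dimmest group. Of 2291 genes with 2 or more probes measured on both arrays, 11 were 2-fold apart at the chosen probe, 9 of these had the same sign at every probe, and 0 were 2-fold apart at all probes. In 6 genes every probe was at least 1.5-fold apart in the same direction. Among the higher was Plac9 (1.09 and 0.89). Lower were Ccl6, the plasma membrane calcium pump gene Atp2b4 (-0.99 and -0.82), Fam227a (-0.83, -0.69 and -0.87) and Hs3st6 (-0.60 and -0.68). Among genes read from about 10 spots, the homeobox gene Prrx2 (0.85) and the integrin gene Itga8 (-0.78) were also over 1.5-fold apart, and the other probe of Itga8 was not well above background on either array. The highest and lowest values of all are bounds from single spots: Tas2r114 was at least 13.5-fold higher and Csap1 at least 13.0-fold, Elfn1 at least 27.1-fold lower and Tas2r123 at least 12.3-fold. Elfn1 was well above background on the control array alone, at -1.71 there and between -7.87 and -6.31 on the other 5 arrays. The control is thus the array that stands apart for Elfn1. Chemoreceptor genes, of smell and taste, lay mostly near background: 363 of 1334 could be compared. Of these 7 were at least 2-fold higher (0.452% of all genes) and 27 lower (1.13% of all), and in 217 the control was the highest of the 6 arrays (23.0% of all). Their median was -0.27, and 0.66 with the other 5 arrays as the baseline. Of the 363 values 106 are bounds, whose genes entered through the 1 array where they were high. The rank count and the medians are therefore in part built in.

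The 75th percentile of signal was 1312.2 on the control array and 1504.4 on the day 35 array, within the 1242.9 to 1504.4 of all 6, and 80.2% and 80.0% of spots were well above background. For probes with 10 spots the median SD between spots was 0.076 on the control and 0.056 on the day 35 array. Lower calls were spread unevenly over the array, with 23, 27, 35 and 72 in its 4 blocks of equal area, where 3145 to 3790 genes were compared, and higher calls with 23, 7, 29 and 4. Subtracting local medians gave 66 higher and 141 lower genes.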

How the data were processed

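Each sample was 1 array of pooled hippocampal RNA, and the array, not the animal, was the unit of comparison, so no test was run. Per the labels, RNA was isolated with TriPure and amplified with an Agilent linear amplification kit. The deposited scanner files hold processed, background-subtracted intensity in the green channel per the file headers (Feature Extraction 10.7.3.1), although the labels name Cy5. The authors' deposited table of intensity values was used as an alternative, and how it was made is not stated there. Flags on background, saturation and outlier spots, deposited as 0 or 1 per the file headers, are the scanner software's own.

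From these files, outlier and control spots were left out, spots of a probe averaged, and log2 of the deposited intensity taken minus the array's 75th percentile. Of 30367 probes, 17328 were named through their accession in RefSeq (GRCr8, for names alone), 2632 by symbol and 717 by synonym. Named genes were the largest measured differences outside the dimmest group, the largest bounds, genes with all probes over 1.5-fold apart, genes over 1.5-fold apart read from a probe printed 10 times (some after outlier spots were left out), and members of the lists. The comparison, its members and the gene lists were chosen with earlier results of these data known. Calls were at least 2-fold. The calculation was checked on simulated intensities. Alternatives covered scaling, background correction, filters, probe choice, saturation and baseline. Python 3.11.15, numpy 2.4.6, pandas 2.3.3 and, for normexp, limma 3.58.1 in R 4.3.3 were used. A few genes that meet the rule are not reported here.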

Additional observations from a re-analysis of the deposited data

How the results depend on the processing

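Against 63 higher and 157 lower genes, quantile normalization gave 115 higher, normexp background correction 13 higher and 36 lower, and the authors' table of values 39 higher and 67 lower. Requiring both arrays above background gave 23 and 84, no background filter 202 and 514, and leaving out genes above background on 1 of the 6 arrays 36 higher. With the median of the other 5 arrays as the baseline the counts were 362 higher and 17 lower. That baseline includes the arrays of days 45, 55 and 70 from the other slide. Wherever it is used, a slide difference and a difference between days cannot be told apart. Without the dimmest of 3 level groups, an alternative added after seeing the data, they were 17 and 39. The other 12 of 26 counts stayed within 1.5 times, those with local medians subtracted, also added later, among them. With the other 5 arrays as the baseline the sign turned for Aarsd1 (0.08), Mrgprb4 (0.02), Or13a25 (0.27), Or2t1 (0.03), Or4a69 (1.37), Or52p1 (0.57), Or6b13 (1.87), Or6k4 (0.15), RT1-Da (-0.33) and Tlx3 (0.06); the cause was not tested. No paired analysis was possible because each group has 1 array. The number of arrays and signal near background limit the precision: bounds and dim genes rest mostly on 1 spot.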
